A study of Arabidopsis thaliana and Lotus japonicus with 44 samples.

Results

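Roots of 2 independent Arabidopsis lines that carry the same IPD3-Min construct were compared directly with each other. The comparison rested on 14 of the 44 libraries of the series, 8 of line 308 and 6 of line 310, which were taken by their labelled genotype and medium. In line 308 there were 4 libraries from plants that had received the arbuscular mycorrhizal fungus (AMF) Rhizophagus irregularis and 4 from mock-inoculated plants, and in line 310 there were 3 of each. A further 8 libraries of the untransformed wild type Col-0, 4 with and 4 without AMF, gave the level without the transgene. All of these plants grew on 1/2 MS medium, a standard plate medium at reduced salt strength, and their roots were collected at 6 weeks. Both lines are homozygous, have the Col-0 background and carry a 35S:mCherry marker, and each library pooled the roots of several seedlings of a plate. IPD3-Min, the part of the Medicago truncatula protein IPD3 that binds DNA, is driven in both lines by the Arabidopsis UBQ10 promoter, which is active in most cells. Each line is 1 independent transformation event, so the amount of transgene product, the site of insertion and the seed stock cannot be told apart as sources of a difference between the lines. The transcript of IPD3-Min itself is not analysed here.

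IPD3, the counterpart of CYCLOPS in Lotus japonicus, is a transcription factor of the common symbiosis pathway. In host legumes the calcium-dependent kinase DMI3 phosphorylates it when the fungus is perceived, and it then switches on genes for root colonisation. Arabidopsis lost this gene together with the ability to form mycorrhiza, and the shortened form acts without the kinase.

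The construct carries the UBQ10 promoter, and counts next to it differed between the lines. One annotated transcript of the endogenous polyubiquitin gene UBQ10, AT4G05320.4, holds 16 bases at chr4:2718543-2718558 that belong to none of the other UBQ10 transcripts. They lie 19 bases beyond the stretch chr4:2716581-2718523 (1943 bases, + strand). This stretch was placed by only the last letters of the 2 primers that amplified the promoter, those after the hyphen in the primer list. The earlier letters were not searched. In the reverse primer the last of these earlier letters match the first bases of the window below. The cloned fragment thus reaches into the window, and its distance to the 16 bases is shorter than 19 bases. This window is shown because a read pair is counted for this transcript alone only through the 16 bases in capitals, which precede the start codon of UBQ10 (5′ to 3′, from the RefSeq genome TAIR10.1).
UBQ10 (chr4:2718524-2718572, + strand): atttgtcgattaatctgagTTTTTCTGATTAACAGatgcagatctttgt
Read pairs counted for AT4G05320.4 numbered 39, 34, 36 and 39 in line 308 with AMF and 32, 45, 38 and 37 in line 308 without AMF. In line 310 they numbered 15, 21 and 18 with AMF and 12, 30 and 15 without AMF. Col-0 had 4, 5, 6 and 4 with AMF and 6, 2, 3 and 6 without AMF. All 8 libraries of line 308 thus lay above all 6 of line 310, by a narrow margin of 32 against 30 read pairs at the closest. All 6 of line 310 lay above all 8 of Col-0.

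In CPM, read counts scaled to the depth of each library, UBQ10 AT4G05320.4 had a lowest, median and highest value of 2.27, 2.67 and 3.26 in line 308. The same values were 0.845, 1.19 and 2.11 CPM in line 310 and 0.142, 0.329 and 0.435 CPM in Col-0. The log2 fold change of line 308 over line 310 was 1.02 ± 0.18 (SE; adjusted p = 0.00579, edgeR quasi-likelihood test). Within the AMF states it was 1.03 with AMF (adjusted p = 0.0804) and 1.02 without AMF (adjusted p = 0.461, both edgeR). Against Col-0 it was 3.01 in line 308 (adjusted p = 1.32e-09) and 1.99 in line 310 (adjusted p = 3.75e-05), both from an edgeR fit of all 22 libraries. Whether these pairs came from the native gene or from the construct was not tested. HSP18.2, the small heat shock protein gene whose terminator is in the construct, had 4.23, 5.81 and 8.6 CPM in line 308, against 7.81, 8.23 and 12.1 CPM in line 310 and 3.41, 6 and 8.06 CPM in Col-0, and did not pass the test between the lines (log2 fold change -0.65 ± 0.17, adjusted p = 0.0623, edgeR). For HSP18.2 the adjusted p was 0.0335 without replicate 1 and 0.0316 without replicate 4 of line 308 without AMF (edgeR).

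A gene far above Col-0 in both lines did not pass the test between them. CYP76C2, a cytochrome P450 gene of the CYP76C cluster on chromosome 2 (chr2:18779321-18781973, - strand), had 20, 25 and 38.5 CPM in line 308 and 13.3, 34.2 and 47.6 CPM in line 310, against 0.209, 0.565 and 2.39 CPM in Col-0. The ranges of the lines overlapped, with a log2 fold change of -0.21 ± 0.24 (adjusted p = 0.799, edgeR), while each line stood above every Col-0 library. Its log2 fold change over Col-0 was 5.09 in line 308 and 5.29 in line 310. CYP76C4 of the same cluster had a median of 15.3 CPM in line 308, 13.1 CPM in line 310 and 9.38 CPM in Col-0 with overlapping ranges, and a log2 fold change between the lines of 0.35 ± 0.26 (adjusted p = 0.633, edgeR).

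**Figure D1:**
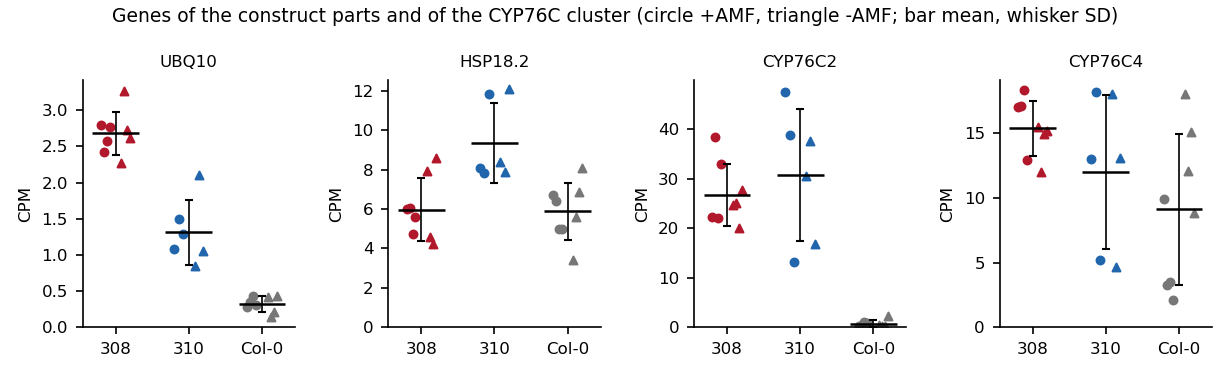
CPM of UBQ10 (AT4G05320.4), HSP18.2, CYP76C2 and CYP76C4 in each library of line 308, line 310 and Col-0 (circles with AMF, triangles without AMF, bar the mean, whisker the SD). The ranges of UBQ10 do not overlap, with line 308 at 2.27 to 3.26 CPM narrowly above line 310 at 0.845 to 2.11 CPM, whereas CYP76C2 lies between 13.3 and 47.6 CPM in both lines.

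The libraries had 13402761 to 14259603 counted read pairs each, so depth hardly differed between the lines. The biological coefficient of variation, the typical relative spread of a transcript between libraries of a group, was 0.1393 in line 308 and 0.1674 in line 310. In a principal component analysis of log2 CPM, the first component held 19% of the variance and separated the lines without overlap. Scores were -36.3 to 7.65 in line 308 and 14.7 to 24.8 in line 310, a gap of -34.7 between the means (p = 0.000666, exact permutation test over 3003 splits, two-sided, the smallest value these splits can give). With each transcript scaled to unit variance the gap was -49.7 (exact permutation p = 0.0733). The library of line 308 nearest to line 310, at 7.65, was replicate 1 without AMF, and counts are therefore also given without it. The gap between libraries with and without AMF was -0.858 on this component (exact permutation p = 0.934) and 20.3 on the fourth (exact permutation p = 0.0035, not adjusted for the components compared). Of 13 tested root identity markers 0 passed the test between the lines (edgeR, 2 at an unadjusted p under 0.05), and their summed level was 606 to 856 CPM in line 308 and 646 to 773 CPM in line 310.

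**Figure D2:**
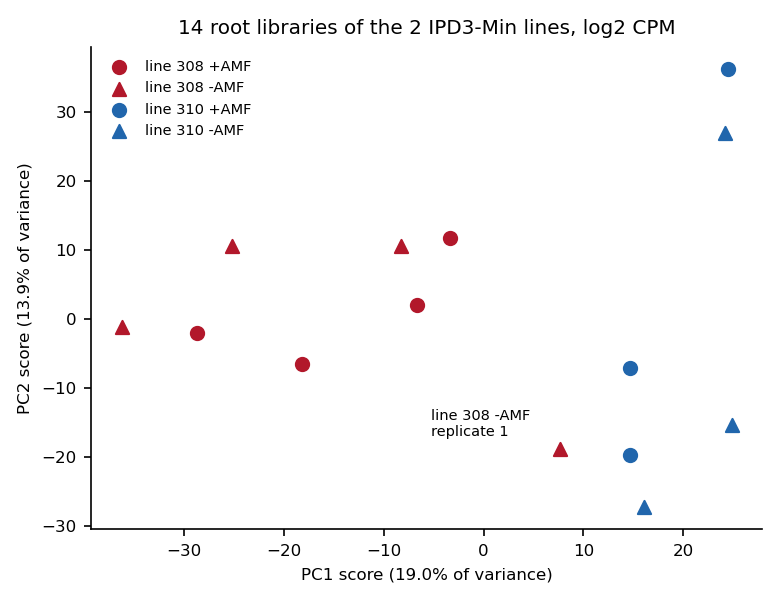
Scores of the 14 libraries on the first and second principal components of log2 CPM, with line 308 in red and line 310 in blue (circles with AMF, triangles without AMF). Line 308 spans -36.3 to 7.65 on the first component and line 310 spans 14.7 to 24.8, and replicate 1 of line 308 without AMF is the library of its line closest to line 310.

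With AMF presence as a covariate, 364 of 16925 tested transcripts (2.15%) differed between line 308 and line 310 at an adjusted p under 0.05 (edgeR quasi-likelihood test, Benjamini-Hochberg adjustment over all tested transcripts). In line 308, 208 were higher (1.23%) and 156 were lower (0.922%). Most differences were moderate, with a median absolute log2 fold change of 0.7 and only 127 transcripts at a 2-fold difference (log2 of 1) or more. Among the transcripts higher in line 308, 107 (51.4%) had every library of line 308 above every library of line 310. Among the lower ones 44 (28.2%) were separated in this way, and among all tested transcripts 175 (1.03%). Without replicate 1 of line 308 without AMF, 619 transcripts passed the test, 296 higher and 323 lower, so that the majority changed to the lower side. p-values measure the spread between these libraries, for which the sources used here do not name separate cultures beyond the plates.

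ABF4, AT3G02480 and XERO1 were 3 of the 12 transcripts with the largest increase in line 308 among called transcripts that averaged at least 10 counts and did not overlap between the lines. They have roles in drying cells or in the response to abscisic acid (ABA), the hormone of drought and seed maturation. A list of 24 marker genes of ABA and drought did not move together: of 13 tested, CBF2 was higher and KIN1 lower, and the median log2 fold change was 0.1. In that list NCED3, the enzyme that limits ABA synthesis, had a value of -0.64 (adjusted p = 0.0696) and the phosphatase gene ABI1 a value of -0.27 (adjusted p = 0.122, both edgeR). ABF4, a bZIP transcription factor that binds ABA-responsive promoter elements (AT3G19290.5, chr3:6687237-6689784, + strand), had 10.6, 16.1 and 20.7 CPM in line 308, against 3.3, 4.63 and 5 CPM in line 310 and 2.03, 2.9 and 3.69 CPM in Col-0. Every library of line 308 thus had at least 10.6 CPM and none of the others more than 5, with a log2 fold change between the lines of 1.81 ± 0.16 (adjusted p = 6.07e-06, edgeR). AT3G02480, which encodes a late embryogenesis abundant family protein (chr3:512220-513036, + strand), had 6.31, 15.8 and 24.3 CPM in line 308, against 0.937, 1.74 and 2.2 CPM in line 310 and 0.977, 1.2 and 4.93 CPM in Col-0. The log2 fold change was 3.27 ± 0.29 (adjusted p = 6.21e-06, edgeR), and again no library of the other genotypes reached the lowest of line 308. The dehydrin gene XERO1, whose product protects cells against loss of water (chr3:18941925-18942940, + strand), had 6.91, 13 and 15.5 CPM in line 308 and 2.27, 3.42 and 4.76 CPM in line 310, a log2 fold change of 1.85 ± 0.18 (adjusted p = 2.49e-05, edgeR). Here the lines were separate, but the Col-0 range of 1.86 to 8.12 CPM reached into that of line 308. The lowest library of line 308 was replicate 1 without AMF for AT3G02480 and replicate 4 without AMF for XERO1.

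Genes of the AFP family, whose products bind the ABA factor ABI5 and dampen ABA responses, were also higher in line 308 in 3 of 4 cases. AFP1, AFP2 and AFP3 passed the test and separated the lines, and the remaining family member TMAC2 did not pass (log2 fold change 0.4 ± 0.1, adjusted p = 0.0533, edgeR). They were chosen, like the other genes of this paragraph, after their values had been seen. Outside the marker list above, how many genes of ABA responses were tested was not counted. AFP2 had 37.4, 44.2 and 50.5 CPM in line 308, a median of 22 and at most 24.5 CPM in line 310, and 12.8, 16.5 and 20.5 CPM in Col-0 (log2 fold change between the lines 1.03 ± 0.08, adjusted p = 3.3e-06, edgeR). AFP1 (0.52 ± 0.08, adjusted p = 0.00197, edgeR) and AFP3 (0.83 ± 0.13, adjusted p = 0.00167, edgeR) differed less. AFP2 lies on the strand opposite to AT1G05033, which overlaps it and was called too, with reads counted by strand. It also passed the test against Col-0 in both lines, at 1.42 in line 308 (adjusted p = 1.73e-10, edgeR) and 0.4 in line 310 (adjusted p = 0.0402, edgeR). MAPKKK18, a kinase of an ABA-activated cascade, had 4.96, 6.52 and 8.24 CPM in line 308 and 2.48, 3.49 and 3.95 CPM in line 310, with a log2 fold change of 0.94 ± 0.15 (adjusted p = 0.00277, edgeR). ABCG25, which exports ABA from cells, was higher by 0.4 ± 0.08 (adjusted p = 0.0124, edgeR), although the ranges of 106 to 145 CPM in line 308 and 77.9 to 109 CPM in line 310 overlapped.

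Called genes that act on starch and sugars are described next. They were picked from the calls after their values had been seen, and how many genes of this metabolism were tested was not counted. GBSS1, the starch synthase that makes amylose on the granule (chr1:11920390-11923866, - strand), had 13.1, 14.5 and 22.4 CPM in line 308, against 3.81, 4.98 and 6.27 CPM in line 310 and 3.83, 4.86 and 6.05 CPM in Col-0. Its log2 fold change was 1.63 ± 0.14 (adjusted p = 6.21e-06, edgeR), and line 310 overlapped with Col-0. SUS3, a sucrose synthase, had 146, 207 and 234 CPM in line 308, against 65.8, 92.2 and 103 CPM in line 310 and 51.8, 76 and 133 CPM in Col-0 (log2 fold change 1.17 ± 0.13, adjusted p = 6.44e-05, edgeR). The starch branching enzyme gene SBE2.1 had 119, 129 and 149 CPM in line 308, against 68.5, 85.5 and 95.7 CPM in line 310 and 79.9, 90.9 and 103 CPM in Col-0 (0.66 ± 0.05, adjusted p = 2.23e-06, edgeR). For all of these the lines did not overlap. Smaller differences passed the test for ISA3, which debranches starch (0.24 ± 0.05, adjusted p = 0.0122), and for the beta-amylase gene BAM2 (0.27 ± 0.07, adjusted p = 0.0434, both edgeR). ISA3 had a median of 80.3 CPM in line 308, 68.3 CPM in line 310 and 76.9 CPM in Col-0, and against Col-0 its log2 fold change was 0 in line 308 (adjusted p = 0.99) and -0.24 in line 310 (adjusted p = 0.0216, both edgeR). The call of BAM2 held in only 4 of the 14 fits that each left out 1 library. Others were lower in line 308, where the chloroplast beta-amylase gene CT-BMY fell by 1.05 ± 0.23 (adjusted p = 0.0238, edgeR) and the sucrose transporter gene SUC1 by 0.37 ± 0.08 (adjusted p = 0.0183, edgeR). TRE1, which encodes trehalase, was higher by 1 ± 0.15 (adjusted p = 0.00143, edgeR), as was the galactinol synthase gene GolS4 by 0.76 ± 0.15 (adjusted p = 0.0112, edgeR), whereas its relative GolS3 fell by 0.79 ± 0.19 (adjusted p = 0.0368, edgeR).

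The largest increase among transcripts with at least 10 counts on average and no overlap was that of SCPL19 (chr5:2988314-2991156, + strand), an acyltransferase of the serine carboxypeptidase-like family that makes the seed compound sinapoylcholine. It had 2.11, 2.58 and 3.14 CPM in line 308, against 0, 0.177 and 0.352 CPM in line 310 and 0, 0.106 and 0.352 CPM in Col-0. These values correspond to 30 to 44 read pairs in each library of line 308 and 0 to 5 in each of line 310, with a log2 fold change of 3.78 ± 0.29. Among the 22 libraries SCPL19 reached the minimum of 10 counts only in line 308, as did AT4G05380, so no p-value is given for either. Both remain in the counts of called transcripts. A similar step was seen for AT4G21650, which encodes a protease of the subtilase family (chr4:11501162-11504739, - strand), with 8.65, 17 and 23.7 CPM in line 308, against 1.28, 1.67 and 3.08 CPM in line 310 and 0.996, 1.74 and 2.25 CPM in Col-0 (3.08 ± 0.3, adjusted p = 1.8e-05, edgeR). AT4G16050, of the plant mobile domain family, had 2.55, 3.76 and 6.28 CPM in line 308, against 0.288, 0.392 and 0.634 CPM in line 310 and 0.214, 0.532 and 0.726 CPM in Col-0 (3.14 ± 0.23, adjusted p = 2.23e-06, edgeR). In all 3 genes the range of line 310 overlapped that of Col-0.

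NADP-ME1, an NADP-dependent malic enzyme (chr2:8591808-8595559, - strand), had 4.39, 6.55 and 9.13 CPM in line 308 and 0.789, 1.13 and 2.09 CPM in line 310, against 0.153, 0.635 and 0.993 CPM in Col-0 (log2 fold change between the lines 2.45 ± 0.21, adjusted p = 6.21e-06, edgeR). NDA1, an internal alternative NAD(P)H dehydrogenase of mitochondria (chr1:2204104-2207099, + strand), had 4.82, 7.78 and 11.3 CPM in line 308 and 1.06, 1.27 and 2.01 CPM in line 310, against 0.698, 1.23 and 1.49 CPM in Col-0 (2.43 ± 0.22, adjusted p = 9.32e-06, edgeR). Line 308 was again apart from both other genotypes. A list of 8 genes induced by mitochondrial stress, of which 6 were tested, had 0 calls (edgeR, 3 at an unadjusted p under 0.05) and a median of 0.38. AT3G08790, of the ENTH/VHS/GAT family of vesicle transport (2.7 ± 0.36, adjusted p = 0.000427, edgeR), and the defensin-like gene AT5G44973 (1.91 ± 0.37, adjusted p = 0.011, edgeR) also separated the lines. So did AT4G05380, an ATPase of the P-loop superfamily (2.78 ± 0.31), for which no p-value is given because of its low counts outside line 308. For AT5G44973 the Col-0 range of 0.0723 to 1.53 CPM overlapped that of line 308, at 0.933 to 1.86 CPM. The log2 fold change of AT5G44973 over Col-0 was 0.92 in line 308 (adjusted p = 0.138) and -0.99 in line 310 (adjusted p = 0.438, both edgeR).

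CUC1 and YUC9 were higher in line 308 as well. CUC1, a NAC transcription factor that sets the boundaries of organs (chr3:5109782-5111608, + strand), had 2.51, 3.59 and 5.06 CPM in line 308, against 0.497, 0.96 and 1.34 CPM in line 310 and 0.639, 0.89 and 1.45 CPM in Col-0 (log2 fold change 1.87 ± 0.22, adjusted p = 0.000171, edgeR). YUC9, a flavin monooxygenase of auxin synthesis (chr1:1104493-1106241, + strand), had 18.6, 21.3 and 26.2 CPM in line 308, against 9.79, 11.9 and 13.9 CPM in line 310 and 5.39, 10.7 and 12.6 CPM in Col-0 (0.87 ± 0.09, adjusted p = 3.38e-05, edgeR). In both genes the lines were apart, and line 310 overlapped with Col-0. YUC9 was the only call among 25 tested auxin genes, of which 20 were below 0, with a median of -0.19. AGL12, a MADS-box factor of root cell differentiation, and COBL1, of the COBRA family of cell wall proteins, were named after their values had been seen because they had small errors. AGL12 had 52.8, 62.5 and 67 CPM in line 308, against 35.7, 37.4 and 44 CPM in line 310 and 31, 38.9 and 45.4 CPM in Col-0 (0.67 ± 0.05, adjusted p = 3.3e-06, edgeR). COBL1 had 21.4, 30.1 and 33.1 CPM in line 308, against 10.3, 11.5 and 12.7 CPM in line 310 and 8.75, 11.5 and 12.8 CPM in Col-0 (1.37 ± 0.1, adjusted p = 2.23e-06, edgeR). A pair of scarce transcripts, also named after their values had been seen, was at or near 0 in line 310. AT1G23070, an organic solute transporter-like gene, had 5 to 14 read pairs in each library of line 308 and 0, 0, 0, 0, 2 and 0 in those of line 310, against 2, 2, 0, 0, 1, 0, 0 and 0 in Col-0. AT2G38905, of a family responsive to low temperature and salt, had 3 to 10 in each of line 308 and 0, 1, 0, 0, 0 and 1 in those of line 310, against 0, 1, 3, 0, 0, 0, 2 and 2 in Col-0. Among the 22 libraries both reached the minimum of 10 counts only in line 308, so no test is given for them.

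**Figure D3:**
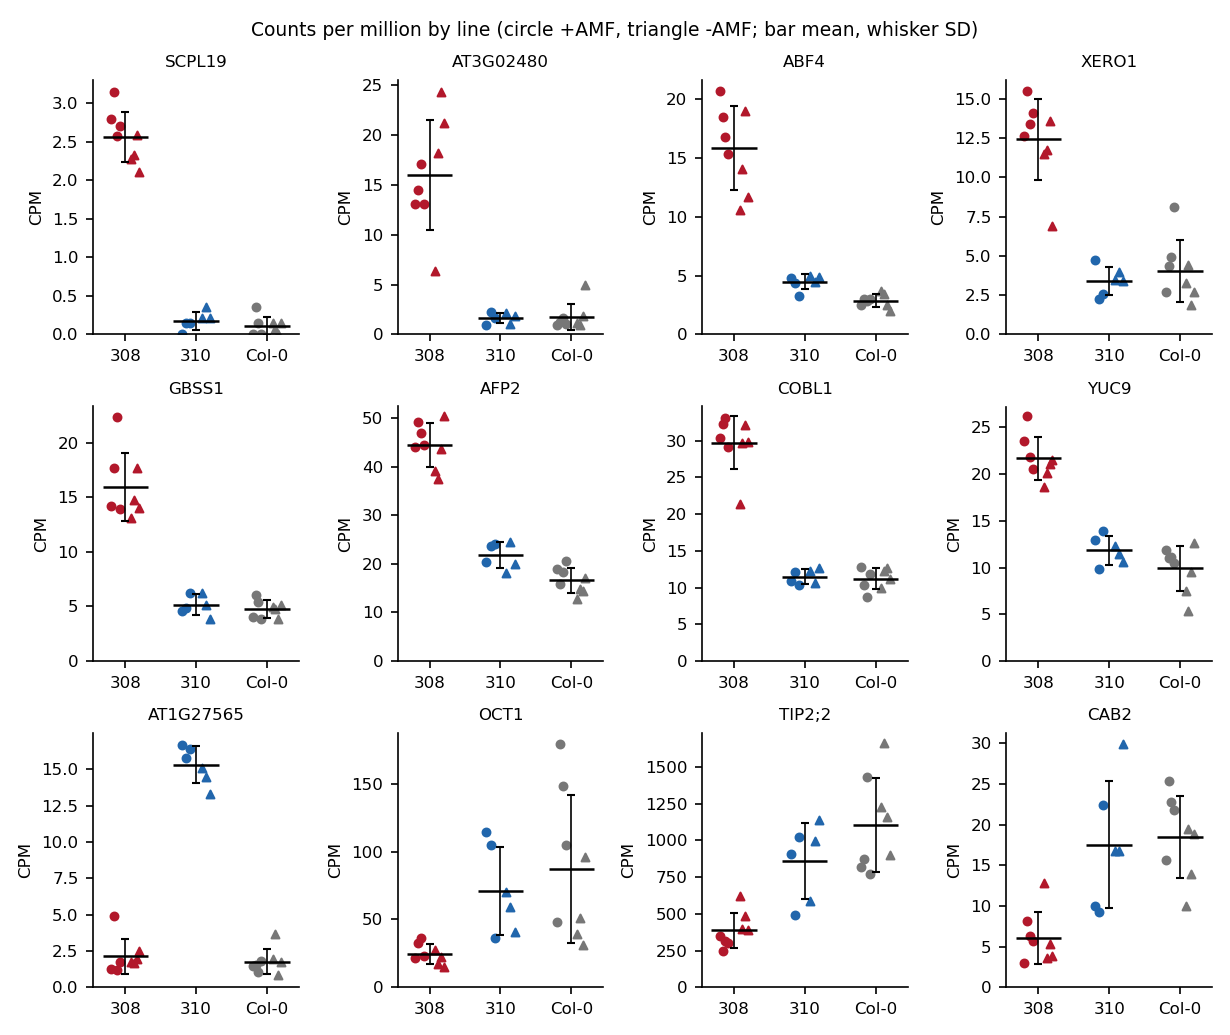
CPM of 12 named genes in each library of line 308, line 310 and Col-0 (circles with AMF, triangles without AMF, bar the mean, whisker the SD). SCPL19, AT3G02480, ABF4, XERO1, GBSS1, AFP2, COBL1 and YUC9 are higher in line 308, and their median in line 310 is closer to that of Col-0. AFP2 also passed the test between line 310 and Col-0. AT1G27565 is high in line 310 alone at 13.3 to 16.7 CPM, and OCT1, TIP2;2 and CAB2 are lower in line 308.

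Promoters are shown for 5 genes that were higher in line 308, because the core of an ABA-responsive element lay upstream of a larger share of such genes than of all tested genes. The 250 bases before the annotated start of each transcript were read from the RefSeq genome TAIR10.1, whose gene coordinates matched those of the tables for 99.5% of genes, and were searched on both strands for ACGTGNC, the core of that element. This search was added after the data had been seen. Each promoter runs 5′ to 3′ on the strand of its gene, and capitals mark the matches, which join where they overlap.
SCPL19 (chr5:2988064-2988313, + strand): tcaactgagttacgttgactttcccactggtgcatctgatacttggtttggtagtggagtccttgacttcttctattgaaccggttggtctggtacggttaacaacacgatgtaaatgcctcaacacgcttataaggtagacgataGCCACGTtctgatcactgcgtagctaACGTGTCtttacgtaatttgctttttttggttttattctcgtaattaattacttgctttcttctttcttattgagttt
XERO1 (chr3:18941675-18941924, + strand): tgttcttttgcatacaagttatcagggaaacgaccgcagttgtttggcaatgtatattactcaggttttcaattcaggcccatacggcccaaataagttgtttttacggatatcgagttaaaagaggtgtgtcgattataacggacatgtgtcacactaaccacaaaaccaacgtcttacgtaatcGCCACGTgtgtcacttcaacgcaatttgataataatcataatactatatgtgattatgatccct
AFP3 (chr3:11384146-11384395, - strand): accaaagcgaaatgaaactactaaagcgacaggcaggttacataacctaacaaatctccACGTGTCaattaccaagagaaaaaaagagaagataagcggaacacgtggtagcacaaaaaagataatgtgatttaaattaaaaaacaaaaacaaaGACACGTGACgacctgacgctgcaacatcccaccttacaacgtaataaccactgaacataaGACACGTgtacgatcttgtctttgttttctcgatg
NADP-ME1 (chr2:8595560-8595809, - strand): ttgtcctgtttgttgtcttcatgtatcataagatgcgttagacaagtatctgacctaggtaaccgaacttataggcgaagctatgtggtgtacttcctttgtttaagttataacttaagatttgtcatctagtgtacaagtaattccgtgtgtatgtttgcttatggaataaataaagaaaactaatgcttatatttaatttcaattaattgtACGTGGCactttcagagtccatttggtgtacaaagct
AT2G38905 (chr2:16244532-16244781, - strand): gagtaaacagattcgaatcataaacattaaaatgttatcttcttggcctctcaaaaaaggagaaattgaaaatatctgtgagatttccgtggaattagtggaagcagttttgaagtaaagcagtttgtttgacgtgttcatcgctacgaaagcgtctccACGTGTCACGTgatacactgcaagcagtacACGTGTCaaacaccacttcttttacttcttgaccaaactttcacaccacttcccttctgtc
SCPL19 has 2 matches, XERO1 1, AFP3 4, NADP-ME1 1 and AT2G38905 3. In contrast, ABF4, AT3G02480, CUC1 and GBSS1 have none in this window.

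A match to ACGTGNC lay upstream of 52 of the 207 genes higher in line 308 (25.1%). It lay upstream of 18 of the 156 lower genes (11.5%) and of 1461 of all 16401 tested genes (8.91%). The 52 include SCPL19, AT1G23070 and AT2G38905, which among the 22 libraries reached the minimum of 10 counts only in line 308. Of the 208 transcripts higher in line 308, 186 averaged at least 10 counts over the 14 libraries. How many of the 207 genes reached the minimum only in line 308 was not counted, and no share was computed without them. The G-box CACGTG, which overlaps that element where both occur in one run, was found upstream of 23.7% of the higher genes, 5.77% of the lower and 6.8% of all, and 19.8%, 3.21% and 4.41% held both. The shares of other motifs were closer together. The W-box core TTGAC was upstream of 43.5% of higher, 41% of lower and 45.5% of all tested genes, and the evening element AAAATATCT upstream of 1.93%, 2.56% and 2.32%. No test was run on these shares, and genes are not independent of each other. With the calls made without replicate 1 of line 308 without AMF, ACGTGNC lay upstream of 21.1% of higher genes (62 of 294) and 13.4% of lower genes (43 of 322). With the calls of the libraries with AMF the shares were 23.7% of higher and 18.4% of lower genes. With 500 bases they were 29.5% of higher, 14.1% of lower and 13.2% of all genes.

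Among called transcripts that averaged at least 10 counts and did not overlap between the lines, the one with the largest decrease in line 308 was high in line 310 and not in Col-0. AT1G27565, which encodes a small protein of unknown function (chr1:9574550-9575189, + strand), had 1.21, 1.77 and 4.92 CPM in line 308, against 13.3, 15.5 and 16.7 CPM in line 310 and 0.857, 1.65 and 3.69 CPM in Col-0. The log2 fold change between the lines was -2.84 ± 0.22 (adjusted p = 3.3e-06, edgeR). Against Col-0 it was 0.27 in line 308 (adjusted p = 0.574, edgeR) and 3.11 in line 310 (adjusted p = 3.07e-07, edgeR). It was the only one of the 12 with the largest decrease under these criteria that passed the test between line 310 and Col-0.

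For most of the other lower genes line 310 resembled Col-0 in level. AT3G22121, a noncoding transcript annotated as antisense to AT3G22120 and counted with its strand, had 0, 0.215 and 0.709 CPM in line 308, against 0.721, 1.3 and 2.61 CPM in line 310 and 1.06, 1.58 and 2.25 CPM in Col-0 (log2 fold change between the lines -2.46 ± 0.4, adjusted p = 0.00299, edgeR). OCT1, a transporter of carnitine and organic cations, had 14.9, 22.8 and 36.1 CPM in line 308, against 36.3, 64.9 and 114 CPM in line 310 and 31.4, 73.5 and 179 CPM in Col-0 (-1.52 ± 0.22, adjusted p = 0.00118, edgeR). AT5G18840, a sugar transporter-like gene of the major facilitator superfamily, had 8.81, 12 and 17.2 CPM in line 308, against 20.7, 24.7 and 31.4 CPM in line 310 and 21.4, 26.7 and 30.5 CPM in Col-0 (-1.09 ± 0.14, adjusted p = 0.000337, edgeR). In each of these the lines were separate, though OCT1 only by a narrow margin.

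Single genes with roles in defence were lower in line 308, while most members of the lists they belong to were not called. TAT3 was the only call among 19 tested jasmonate genes (median log2 fold change -0.03) and RLP23 the only one among 21 of immune receptors and WRKY factors (median 0). Of 14 tested genes of indole glucosinolates and camalexin 0 were called (edgeR, 1 at an unadjusted p under 0.05), with a median of 0. The tyrosine aminotransferase gene TAT3, which responds to jasmonic acid, had 0.435, 0.816 and 1.36 CPM in line 308, against 1.37, 2.31 and 5.78 CPM in line 310 and 1.35, 3.34 and 6.1 CPM in Col-0 (log2 fold change -1.83 ± 0.35, adjusted p = 0.00927, edgeR). The receptor-like protein genes RLP28 (-1.61 ± 0.31, adjusted p = 0.00948) and RLP23 (-2.67 ± 0.54, adjusted p = 0.0152, both edgeR) fell as well. RLP23, which senses a peptide of microbial NLP toxins, had 0.142, 0.431 and 1.06 CPM in line 308 and 0.721, 1.81 and 9.72 CPM in line 310, so its ranges overlapped, unlike those of RLP28. PR5, a thaumatin-like pathogenesis-related gene, had 19.6, 83.9 and 155 CPM in line 308, against 134, 164 and 614 CPM in line 310 and 113, 338 and 592 CPM in Col-0 (-1.64 ± 0.37, adjusted p = 0.0278, edgeR), with overlap between the lines. ALD1, an aminotransferase of systemic immunity, fell by 1.47 ± 0.36 (adjusted p = 0.0441, edgeR). These were the 2 calls among 17 tested genes of salicylic acid defence, whose median was -0.41, and the call held in 8 of the 14 fits with 1 library left out for PR5 and in 3 for ALD1. The cytochrome P450 gene CYP71B12 (-1.72 ± 0.35, adjusted p = 0.0149) and the glucosyltransferase gene UGT71B8 (-1.25 ± 0.25, adjusted p = 0.0152, both edgeR) separated the lines. So did AT5G05280, a RING-type ubiquitin ligase (-1.64 ± 0.31, adjusted p = 0.00971), AT1G14960, of the polyketide cyclase family (-1.38 ± 0.26, adjusted p = 0.00887), the noncoding RNA AT2G06995 (-1.66 ± 0.27, adjusted p = 0.00299) and BHLH101, a regulator of the response to iron deficiency (-1 ± 0.22, adjusted p = 0.0204, all edgeR). BHLH101 lost its call without replicate 1 of line 310 with AMF (adjusted p = 0.0514, edgeR). AT2G06995 had a median of 0.533 CPM in line 308, 1.96 CPM in line 310 and 0.778 CPM in Col-0. Over Col-0 its log2 fold change was -0.3 in line 308 (adjusted p = 0.688) and 1.33 in line 310 (adjusted p = 0.118, both edgeR).

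Late genes of anthocyanin synthesis were scarce in line 308 but varied widely in line 310. DFR, which makes the leucoanthocyanidin precursor, had 0, 3, 0 and 1 read pairs in line 308 with AMF and 32, 0, 0 and 0 without AMF. In CPM it had 0, 0 and 2.27 in line 308, against 0.071, 3.91 and 13.9 in line 310 and 2.48, 4.23 and 14.4 in Col-0, with a log2 fold change between the lines of -3.98 ± 0.9 (adjusted p = 0.0283, edgeR). AT5MAT, an anthocyanin malonyltransferase (-3.43 ± 0.85, adjusted p = 0.0481), AT4G14090, an anthocyanin glucosyltransferase (-2.07 ± 0.47, adjusted p = 0.0307), and UF3GT, a xylosyltransferase of anthocyanins (-1.81 ± 0.43, adjusted p = 0.0367, all edgeR), fell too. The lines overlapped in all 4 of these genes. Without replicate 1 of line 308 without AMF the value of DFR was -6.70 and that of AT5MAT -5.36, and without replicate 3 of line 310 with AMF that of AT4G14090 was -1.37 and that of UF3GT -1.12. Each lost its call in 9 or more of the 14 fits that left out 1 library, whereas all 4 kept it without replicate 1 of line 308 without AMF, the library with 32 read pairs of DFR. Of 17 tested flavonoid and anthocyanin genes these 4 fell and 0 rose, where 0.922% of all tested transcripts fell. This list was chosen with earlier results of these data known. The early genes of the pathway did not pass, with PAL1, the entry enzyme, at 0 ± 0.08 (adjusted p = 0.995, edgeR) and the chalcone synthase gene TT4 at -0.46 ± 0.35 (adjusted p = 0.638, edgeR).

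Over 30 gene lists of hormones, nutrients, stress, metabolism and cell types, 414 of 576 listed genes were tested, and 6 were higher (1.45%) and 15 lower (3.62%) in line 308, beside 1.23% and 0.922% of all tested transcripts. The lists were chosen with earlier results of these data known, so these shares describe the choice too and are no independent result. The median log2 fold change of all tested transcripts was 0. Aquaporins had 2 calls among 11 tested members and a median of -0.33. TIP2;2, a channel for water and ammonia in the vacuole membrane, had 245, 369 and 620 CPM in line 308, against 496, 954 and 1140 CPM in line 310 and 773, 1030 and 1660 CPM in Col-0 (-1.18 ± 0.18, adjusted p = 0.00169, edgeR), and its close relative TIP2;3 fell by 1.57 ± 0.28 (adjusted p = 0.00612, edgeR). In both genes the ranges of the lines overlapped. The ammonium transporter AMT1;2 was the 1 call among 21 tested genes of nitrogen uptake (-0.47 ± 0.1, adjusted p = 0.0204, edgeR). BHLH101 was the only call among 20 genes of iron uptake, and AGL24 the only one among 11 of flowering time (-1.22 ± 0.3, adjusted p = 0.0495, edgeR).

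On the higher side, single members were called in the lists of auxin (YUC9), cytokinin, ethylene, heat stress and drought. IPT3, which makes cytokinin, was higher by 0.59 ± 0.14 (adjusted p = 0.0353, edgeR), the ethylene precursor enzyme ACS2 by 1.08 ± 0.27 (adjusted p = 0.0469, edgeR) and the chaperone HSP101 by 0.57 ± 0.13 (adjusted p = 0.0258, edgeR). All 3 overlapped between the lines. CBF2, a regulator of cold acclimation, had 1.79, 2.39 and 4.95 CPM in line 308 and 1.06, 1.26 and 1.55 CPM in line 310 (1.02 ± 0.19, adjusted p = 0.0091, edgeR) and did not overlap. KIN1, a small cold-induced protein, fell by 1.28 ± 0.32 (adjusted p = 0.0453, edgeR). The calls of ACS2, IPT3, AGL24 and KIN1 held in only 3 or 4 of the 14 fits with 1 library left out, that of HSP101 in 9 and that of AMT1;2 in 11. Over all tested transcripts 13.8% had an unadjusted p under 0.05. No member was called among 21 genes of phosphate starvation (2 at an unadjusted p under 0.05), 25 of suberin and the Casparian strip (3), 15 of the circadian clock (2), 15 of low oxygen (6), 20 of root hairs (4) and 9 of strigolactone and karrikin signalling (2), all by edgeR.

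Markers of leaf tissue moved with the comparison. All 16 tested genes of photosynthesis, of 28 listed, were below 0, with a median of -0.51, 1 call and 11 at an unadjusted p under 0.05 (edgeR), where 50.3% of all tested transcripts were below 0. Their summed level was 1170, 1480 and 2820 CPM in line 308, against 1370, 2340 and 3750 CPM in line 310 and 2410, 2890 and 3290 CPM in Col-0, so the ranges of the lines overlapped. The called gene was CAB2, a chlorophyll-binding protein of the light-harvesting complex, with 3, 5.57 and 12.8 CPM in line 308, against 9.23, 16.8 and 29.9 CPM in line 310 (-1.5 ± 0.3, adjusted p = 0.0147, edgeR). LHB1B1, a related gene outside the list that was named after its values had been seen, had 0.071, 0.142 and 0.921 CPM in line 308 and 0.649, 1.46 and 3.24 CPM in line 310 (-2.94 ± 0.41, adjusted p = 0.000693, edgeR). The ranges overlapped in both genes. Reads of these near-identical genes may be split among copies. A change in the amount of green tissue and a change in RNA per cell cannot be told apart in whole roots, and their part in the other differences was not tested.

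**Figure D4:**
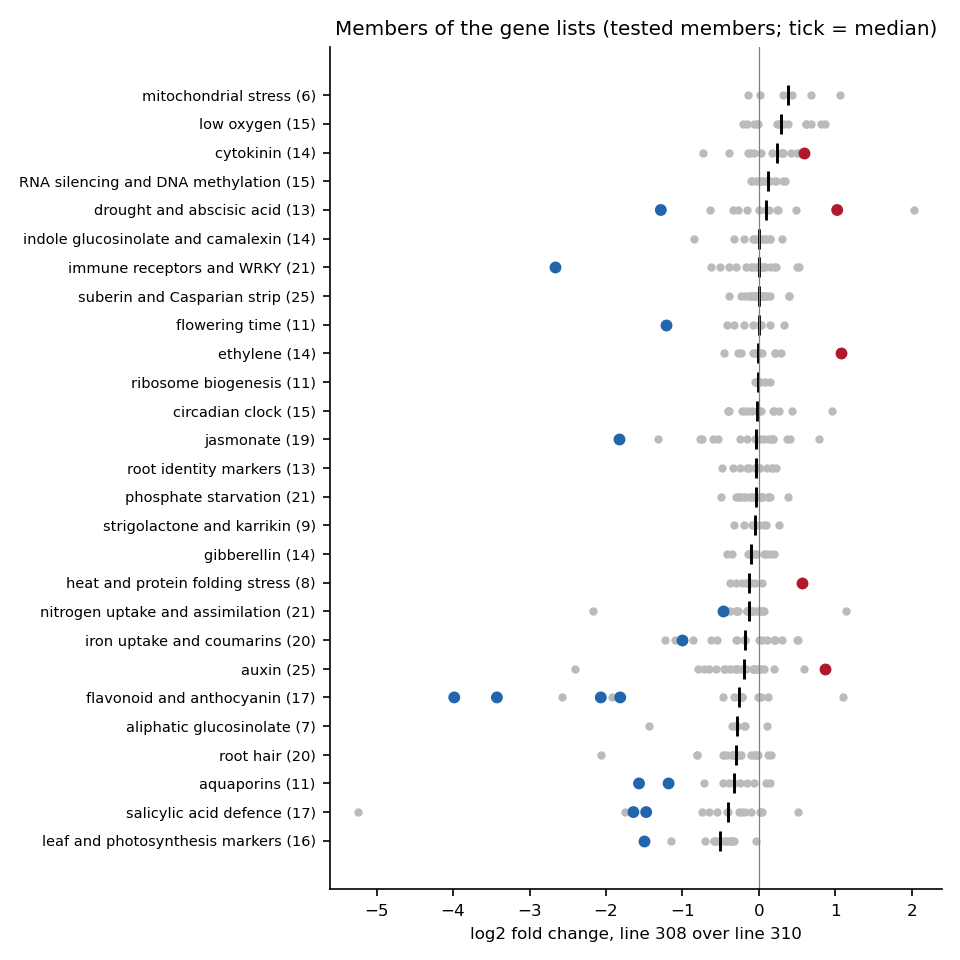
Log2 fold change of line 308 over line 310 for each tested member of the gene lists with at least 3 tested members (grey not called, red higher and blue lower in line 308, black tick the median, number tested in brackets). Of these 27 lists, 13 have no called member, 10 have 1, 3 have 2 and 1 has 4, and the photosynthesis list has the lowest median, at -0.51.

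The comparison was repeated within each AMF state, between 4 libraries of line 308 and 3 of line 310 that share no library with the other state. With AMF, 97 transcripts (0.573%) passed the test, 59 higher (0.349%) and 38 lower (0.225%) in line 308. Without AMF, 20 transcripts (0.118%) passed, 19 higher (0.112%) and 1 lower (0.00591%), but this count was 96 without replicate 1 of line 308 and no more than 8 without any of the other 6 libraries. All 97 called with AMF had the same sign without AMF, and 17 of them (17.5%) were called there. The 20 called without AMF all had the same sign with AMF, and the shared 17 made up 85% of them. Over all tested transcripts 59.7% had the same sign in both states. The shared transcripts include XERO1 (log2 fold change 2.12 with AMF and 1.61 without), NADP-ME1 (2.36 and 2.54), ABF4 (2.09 and 1.54), GBSS1 (1.71 and 1.56), COBL1 (1.49 and 1.26), YUC9 (0.91 and 0.83) and, on the lower side, AT1G27565 (-2.82 and -2.86). A test of the difference itself, the interaction of line and AMF, called 0 transcripts by edgeR's quasi-likelihood test (419 at an unadjusted p under 0.05), 0 by DESeq2, 0 by edgeR's likelihood-ratio test with tagwise dispersions and 57 by the same test with a common dispersion.

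**Figure D5:**
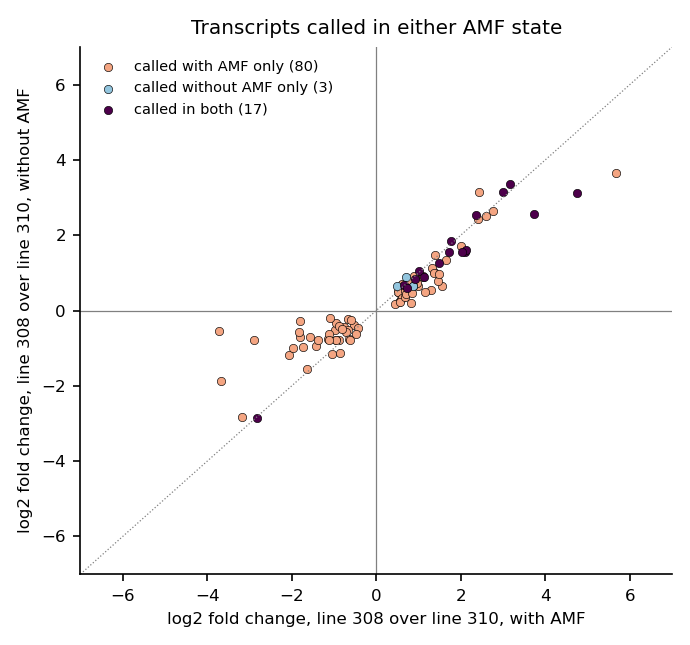
Log2 fold change of line 308 over line 310 with AMF (horizontal axis) and without AMF (vertical axis) for the transcripts called in either state, with the dotted line marking equal values. All points lie in the upper right or lower left quadrant, and 17 transcripts were called in both states.

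Transcripts that differed between the lines were called on every chromosome. Between 1.98% of tested transcripts on chromosome 2 and 2.46% on chromosome 3 were called. No run of 3 or more neighbouring tested genes was called in one direction, and 17 pairs of neighbours were, among them UBQ10 with AT4G05380 and XERO1 with AT3G51000. The sites of insertion were not analysed here.

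The levels of Col-0 place each line. In 1 edgeR fit of the 22 libraries, 2273 transcripts (13.4%) differed between line 308 and Col-0 and 89 (0.526%) between line 310 and Col-0. In line 308, 975 were higher (5.76%) and 1298 lower (7.67%) than in Col-0, and in line 310, 32 were higher (0.189%) and 57 lower (0.337%). Both comparisons used the same 8 Col-0 libraries, and line 310 had fewer libraries than line 308. Among called transcripts that averaged at least 10 counts and did not overlap between the lines, 11 of the 12 with the largest increase passed the test against Col-0 in line 308 and 0 in line 310. Of the 12 with the largest decrease, 10 passed against Col-0 in line 308 and 1, AT1G27565, in line 310. They were chosen on the same libraries of line 308 and line 310, so the counts describe the choice and are no independent result.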

How the data were processed

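Roots were sequenced strand-specifically as poly-A RNA. Per the study's methods, the authors assigned reads to plant, fungus or construct with BBSplit, discarding ambiguous reads, and counted pairs with featureCounts on Araport11. The deposited values are raw counts per transcript, counted on the reverse strand per the file headers. Pairs that overlapped several transcripts were dropped, so genes with more than 1 transcript (30.1% of genes) held only 2.53% to 2.99% of the counts of a library. Values of ABF4, UBQ10 and other such genes therefore rest on bases particular to 1 transcript. The processing notes of the submitters name the build TAIR10.

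The 16925 transcripts that reached 10 counts in any (1 or more) of the 30 Arabidopsis libraries were tested with edgeR 4.0.16 (quasi-likelihood F test, TMM scaling, AMF as covariate) in R 4.3.3, with Benjamini-Hochberg adjustment and a threshold of 0.05. The fit was also run on simulated data, and the outcome is not given here. CPM use TMM over 22 libraries. Libraries held 13402761 to 14259603 counts, and depth and counting error limit scarce transcripts most. No 2 libraries agreed within sampling noise. Alternatives included DESeq2 1.42.0, other dispersions, scalings and filters, a replicate block and leaving out each library. Named genes were, per direction, the 12 with the largest fold change among called transcripts that averaged 10 or more counts and separated the lines fully, up to 4 called members of each list, and the construct and CYP76C genes. A further 15 genes, those marked in the text from the table of all transcripts, and the motifs were chosen after their values had been seen. Members and lists were chosen with earlier results of these data known. For principal components a prior count of 2 was added before taking log2. Python 3.11.15, pandas 2.3.3, scipy 1.17.1 and matplotlib 3.10.9 were used.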

Additional observations from a re-analysis of the deposited data

Results flagged for a closer look

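Among 128 groups of 4 libraries tested for a single distant value, 5 were marked, where chance marks about 5% of groups. DFR had 2.27 CPM in replicate 1 of line 308 without AMF and 0 in the other 3 libraries of that group. AT5MAT, of the same pathway, had 0.709 CPM in that library and 0 to 0.0724 CPM in the others. With AMF, AT5MAT had 0.0714 CPM in replicate 3 of line 308 and 0 in the other 3, so that this mark rests on 1 read pair. CYP76C4 had 12 CPM in replicate 2 of line 308 without AMF and 14.9 to 15.5 CPM in the others. AT4G05380 had 1.86 CPM in replicate 1 of line 308 with AMF and 2.98 to 3.21 CPM in the others.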

How the results depend on the processing

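Of 1582 refits of the 61 named genes, 1348 kept direction and side of the threshold, 228 lost the call, 6 gained it and 0 reversed. Of 58 called genes, 44 were called in all 14 fits that left out 1 library. The 364 calls over both AMF states became 657 by DESeq2, 1213 with a common and 682 with tagwise dispersions by edgeR's likelihood-ratio test, and 257 (without replicate 2 of line 308 without AMF) to 619 (without its replicate 1) with 1 library left out. The 97 calls with AMF became 283, 691 and 336 by these tests, 235 with no filter on low counts and 29 to 91 with 1 library left out. The lowest was without replicate 1 of line 310. The 20 calls without AMF became 114, 548 and 163 by these tests, 38 with no filter, 65 with all 22 libraries in 1 fit and 1 to 96 with 1 library left out. The interaction gave 57 calls with a common dispersion and 0 in the other settings. The 21 calls in the gene lists became 33, 96 and 48 by these tests, 35 with no filter, 1 in libraries without AMF, 5 in libraries with AMF, and 11 to 35 with 1 library left out. With unit variance, the gap on the first principal component was -49.7 (exact permutation p = 0.0733). The cause of these shifts was not tested.

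The lines share replicate numbers, but the 6 same-numbered pairs correlated at -0.193 to 0, so the numbers were not read as pairs. With the replicate block the calls numbered 199 over both states, 18 with AMF, 0 without AMF (edgeR, 824 at an unadjusted p under 0.05) and 5 in the gene lists, and 23 named genes lost their call.

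Each line is 1 transformation event, within 1 AMF state the arms hold 4 and 3 libraries, and an exact permutation test there cannot go below 0.0571. Scarce transcripts such as SCPL19 rest on few read pairs in line 310.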
